A study of Mus musculus with 42 samples.

Results

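The muscle difference described here is soleus minus quadriceps within each of 3 young mice that carry the C3KO genotype, the knockout of calpain 3. The 3 mice, J4-1, J4-2 and H4-1, were chosen by their sample titles, and each gave 1 soleus and 1 quadriceps array. These 6 arrays are part of 42 arrays in all, and the 3 mice are part of 19 mice with a labelled group and both muscles on arrays. A further young C3KO mouse, H4-2, was left out because its soleus array carried liver transcripts: the median log2 value of 19 liver genes was 12.4 there and lay between 3.48 and 3.83 on the other 39 arrays with a group.

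All animals were males of a mixed 129 SvEvBrd and C57BL/6 background, heterozygous per the strain label. Young mice were 2-3 months old, and adult mice were 11-12 months old. Soleus and quadriceps RNA was hybridised to 1-colour Affymetrix arrays. Beside the 3 young C3KO mice, the fit held 4 young wild-type (wt) mice, 6 adult C3KO mice and 5 adult wt mice, each as a soleus minus quadriceps difference. How the calpain 3 gene was disrupted is not given in the labels. Every young wt mouse carries the prefix F4 and every young C3KO mouse J4 or H4, so genotype and whatever the prefix stands for cannot be told apart.

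Soleus is a postural muscle that works for long periods, and quadriceps is used mainly for short and strong movements. Mouse soleus mixes slow type I and fast oxidative type IIA fibres, while most of the quadriceps is made of fast glycolytic fibres, and each fibre type has its own myosins, troponins, calcium pumps and metabolic enzymes. Calpain 3 is a muscle protease held in the sarcomere by titin, and its loss in people causes a limb-girdle muscular dystrophy.

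Values are the authors' deposited log2 expression values, on which a difference of 1 is a 2-fold ratio. The 6 arrays had medians between 4.39 and 4.44. Arrays of one muscle correlated across probe sets at 0.990 to 0.992 (soleus) and 0.991 to 0.994 (quadriceps), and arrays of different muscles at 0.967 to 0.979. The probe set of Capn3, the targeted gene, read 4.33, 4.71 and 4.34 in the soleus of J4-1, J4-2 and H4-1 and 4.34, 4.38 and 4.32 in their quadriceps. In young wt mice it read 10.1 to 10.4 in soleus and 10.2 in quadriceps, so every C3KO array lay below every wt array. Whether this probe set lies within the disrupted part of the gene is not given in the sources used here. With Capn3 at that level, its muscle difference in young C3KO mice was 0.12 ± 0.13 (n = 3) and did not pass the test. Errors here and below are limma's standard errors. They rest on the spread shared by the 18 mice of the fit, not on the 3 mice alone.

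Of 12345 genes tested, 3982 (32.3%) differed between soleus and quadriceps at an adjusted p under 0.05 (limma, Benjamini-Hochberg). Soleus was higher for 1607 of them (13.0%) and lower for 2375 (19.2%). A difference of more than 2-fold was reached by 366 genes higher in soleus (2.96%) and 520 lower (4.21%). Among the 3982 genes, 3938 had the same sign in all 3 mice. The largest differences lay on the side of soleus: 41 genes were over 8-fold higher and 20 over 8-fold lower. The median difference over all genes was -0.03. With 3 mice, an exact sign-flip test of 1 gene cannot go below p = 0.25, so each p given rests on limma's spread, which was shared by the 4 groups of 18 mice.

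The genes that stood highest in soleus were those of the slow thick and thin filaments. Myh7, the slow and cardiac myosin heavy chain, read 13.56, 13.87 and 13.64 in the soleus of J4-1, J4-2 and H4-1 (the order kept from here on) and 7.78, 8.38 and 5.90 in quadriceps. The muscles did not overlap, and H4-1 had the lowest quadriceps value. The mean difference was 6.34 ± 0.71, an 80.8-fold ratio (limma, adjusted p = 6.8e-07).

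The slow troponin complex, which switches contraction on when calcium binds, was higher in soleus in all its 3 subunits. Tnni1, the inhibitory subunit, read 12.82, 13.15 and 12.94 in soleus against 7.30, 7.57 and 5.63 in quadriceps, a difference of 6.14 ± 0.59. Tnnt1, the tropomyosin-binding subunit, read 13.47, 13.83 and 13.73 against 8.43, 8.59 and 6.74, a difference of 5.75 ± 0.67. Tnnc1, the calcium-binding subunit, read 13.09, 13.44 and 13.32 against 8.46, 8.40 and 6.30, a difference of 5.56 ± 0.69. In each subunit, the soleus arrays lay within 0.4 of each other while the quadriceps of H4-1 lay well below that of J4-1 and J4-2.

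Tropomyosin Tpm3 (5.33 ± 0.64) and the slow regulatory and essential light chains Myl2 (4.96 ± 0.67) and Myl3 (4.27 ± 0.53) followed the same pattern. The Tpm3 value is that of its brightest probe set: its 5 probe sets ran from 0.63 to 5.33, and their mean gave 2.79. Among Z-disc proteins, Csrp3, a stretch-linked LIM protein, was higher by 4.65 ± 0.48 and Myoz2, a calcineurin-binding protein, by 4.36 ± 0.45. The M-band protein Myom3 read 9.94, 9.99 and 10.03 in soleus against 5.57, 5.72 and 4.71 in quadriceps, a difference of 4.65 ± 0.33. Smaller differences were seen for Actn2 (2.38 ± 0.22), Myh7b (1.95 ± 0.17) and Mybpc1 (1.65 ± 0.15).

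Of 14 slow contractile genes, 12 were higher in soleus and none was lower, against 13.0% higher over all genes. Group counts here and below are over members that passed the filter on low values, which kept all 14 slow and all 15 fast contractile genes but, at the other end, 22 of 36 limb position genes and 7 of 22 liver genes. The slow median difference was 4.50, beside -0.03 over all genes. Myl6b (0.05 ± 0.13) and Ldb3 (-0.04 ± 0.12) did not pass. The Ldb3 value is that of its brightest probe set: its 3 probe sets ran from -0.04 to 1.09, and only 1 was negative. The median over the 14 genes was 3.60 in J4-1, 4.26 in J4-2 and 5.75 in H4-1. Their mean level lay between 12.2 and 12.5 in the 3 soleus arrays, and was 8.98, 9.00 and 7.67 in quadriceps, so values spread more between mice in quadriceps. Soleus means of Myl2 (14.03), Tpm3 (13.97) and Myl3 (13.94) lay near the highest array values of 14.4 to 14.5. The part of the scale's upper end in the narrow soleus spread was not tested.

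Fast contractile genes differed less. Of 15 measured, 9 were lower in soleus, against 19.2% lower over all genes, 1 was higher and 5 did not pass, with a median of -0.67. Tpm1 is among the 9 by its brightest probe set (-0.32 ± 0.09), but its 4 probe sets ran from -1.87 to 0.32. Actn3, the fast-fibre alpha-actinin, read 12.86, 9.53 and 11.11 in soleus and 14.06, 14.16 and 14.11 in quadriceps. The muscles did not overlap, and soleus of J4-1 lay nearest to quadriceps. The difference was -2.95 ± 0.81 (limma, adjusted p = 0.0075). Mybpc2, fast myosin-binding protein C, showed the same order of mice, with 12.26, 9.40 and 10.76 in soleus, 13.71, 13.75 and 13.77 in quadriceps and a difference of -2.94 ± 0.61.

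Myh4, the type IIB myosin, read 13.43, 9.72 and 12.55 in soleus against 13.96, 13.93 and 14.02 in quadriceps. All 3 mice were lower in soleus, but the difference of -2.07 ± 1.05 did not pass (limma, adjusted p = 0.14), with single-mouse differences from -0.53 to -4.21. This brightest probe set came within 0.39 of the array maximum, and the other probe set of Myh4 gave -3.85. Myh2, the type IIA myosin, was the fast gene with the opposite sign: 14.13, 14.13 and 14.19 in soleus against 12.34, 12.77 and 11.41 in quadriceps, a difference of 1.98 ± 0.25. Myh1, the type IIX myosin, differed by 0.32 ± 0.14 and did not pass. Mylk2 (-1.91 ± 0.18), Myoz1 (-1.50 ± 0.17) and Myoz3 (-1.27 ± 0.17) made up most of the remaining larger differences. The other probe set of Myoz1 gave -2.59 and that of Myoz3 -0.22.

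Fast troponins and light chains lay close to the top of the array's scale, where the highest value was 14.4 to 14.5. Tnnt3, Tnni2, Tnnc2 and Myl1 were within 0.10 to 0.58 of that maximum on all 6 arrays. Among them, only Myl1 passed the test, at -0.27 ± 0.08. The part of the scale's upper end in these small differences was not tested.

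**Figure D1:**
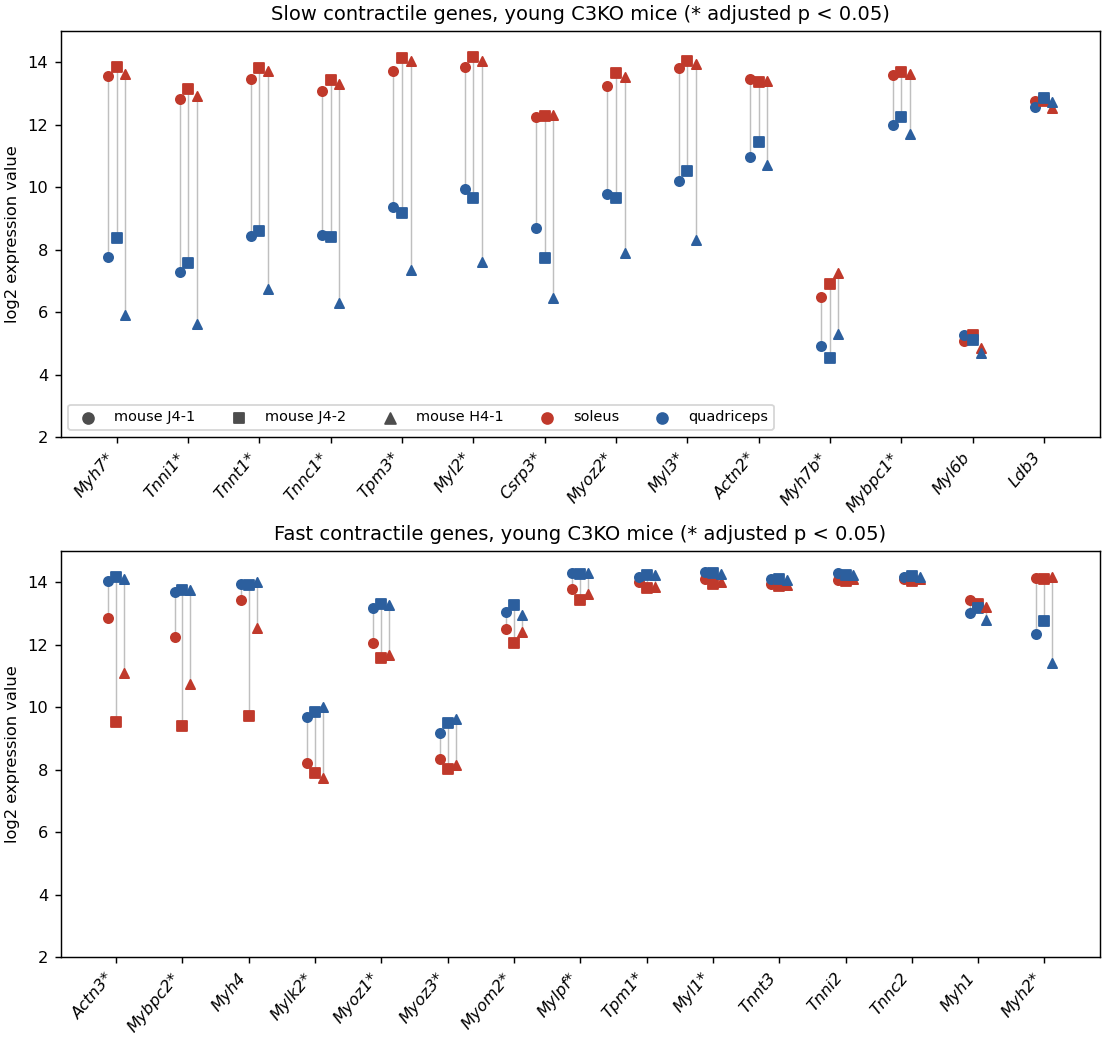
Log2 expression values (y axis) of the 14 slow (top) and 15 fast (bottom) contractile genes in soleus (red) and quadriceps (blue), with 1 marker shape per mouse and a grey line joining both muscles of a mouse. Most slow genes show soleus values near the top of the scale and the lowest quadriceps value in H4-1, while Actn3, Mybpc2 and Myh4 show the highest soleus value in J4-1.

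Promoter windows of these genes, the 250 bases before each RefSeq start on GRCm38.p6, were searched on both strands for CATTCC, the core of the MCAT element that TEAD factors bind. It was present in 3 of 20 windows of slow contractile genes (14 of 14 genes matched), in 5 of 8 windows of fast contractile genes (8 of 15 matched) and in 12.6% of 32851 windows in all. CANNTG, the E-box that MyoD-family factors bind, was in 18 of 20 slow windows, 6 of 8 fast windows and 66.2% of all. The MEF2 element was searched in a loose form, with any base allowed at its middle positions, so a match need not be the element itself. That loose form was in 2 of 20 slow windows, 0 of 8 fast windows and 3.20% of all. The response element of oestrogen-related receptors was in 2 of 20, 0 of 8 and 1.14%. TATAAA (gene strand alone) was in 1 of 20, 2 of 8 and 7.59%. Each motif was counted on its own, and matches of different motifs were allowed to overlap. The motifs were chosen after the values were seen, and a match is a description of letters, not a site of binding. The windows below are shown because they belong to 2 genes higher in soleus (Myl3 and Tnnc1) and 2 lower in soleus (Mybpc2 and Mybph) that hold the MCAT letters. Capitals mark CATTCC or its reverse complement, and each is read 5′ to 3′ on the gene's strand.
Myl3, chr9:110763428-110763677, plus strand: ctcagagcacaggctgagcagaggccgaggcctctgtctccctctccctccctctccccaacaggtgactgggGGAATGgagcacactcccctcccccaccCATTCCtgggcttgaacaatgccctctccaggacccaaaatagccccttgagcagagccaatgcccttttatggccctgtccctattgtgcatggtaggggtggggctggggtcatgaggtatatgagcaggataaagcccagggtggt
Tnnc1, chr14:31208062-31208311, plus strand: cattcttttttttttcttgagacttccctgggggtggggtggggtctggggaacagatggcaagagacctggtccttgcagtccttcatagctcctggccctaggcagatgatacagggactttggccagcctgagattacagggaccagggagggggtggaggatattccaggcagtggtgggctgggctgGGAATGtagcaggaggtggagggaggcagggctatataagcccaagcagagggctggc
Mybpc2, chr7:44524670-44524919, minus strand: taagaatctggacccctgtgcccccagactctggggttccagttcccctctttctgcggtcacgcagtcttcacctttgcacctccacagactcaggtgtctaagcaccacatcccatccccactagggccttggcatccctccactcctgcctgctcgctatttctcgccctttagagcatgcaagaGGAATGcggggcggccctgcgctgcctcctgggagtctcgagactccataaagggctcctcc
Mybph, chr1:134193198-134193447, plus strand: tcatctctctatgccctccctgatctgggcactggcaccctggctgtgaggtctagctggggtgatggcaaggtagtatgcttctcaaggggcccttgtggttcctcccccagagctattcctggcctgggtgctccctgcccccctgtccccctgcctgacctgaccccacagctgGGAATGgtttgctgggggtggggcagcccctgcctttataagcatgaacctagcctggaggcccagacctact

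Calcium handling followed fibre type in its pumps and stores. Atp2a2, the slow and cardiac calcium pump of the sarcoplasmic reticulum, read 13.49, 13.52 and 13.54 in soleus and 8.96, 9.35 and 8.37 in quadriceps, a difference of 4.63 ± 0.33. Sln, sarcolipin, which uncouples that kind of pump, read 9.90, 11.20 and 10.36 against 4.44, 6.11 and 4.65, a difference of 5.42 ± 0.47. Both muscles of J4-2 were the highest of their kind for Sln. The mice differed less in the difference (5.09 to 5.71) than in either level. Quadriceps values of 4.44 and 4.65 lie around the array medians of 4.39 to 4.44, where a low level is not well measured. The closeness of the Sln differences between mice is thus not well measured.

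The calcium buffer Casq2 (3.41 ± 0.26), the pump inhibitor Pln (3.07 ± 0.36) and the calcineurin regulator Rcan1 (2.12 ± 0.15) were also higher in soleus. Beside 13.0% higher and 19.2% lower over all genes, 5 of 8 slow calcium genes were higher and 3 were lower: Ppp3ca, the calcineurin catalytic subunit (-0.77 ± 0.14), Asph (-0.67 ± 0.15) and Trdn, triadin (-0.36 ± 0.09). Of 13 fast calcium genes, none was higher and 7 were lower (19.2% over all genes), with a median of -0.32. Parvalbumin Pvalb, the fast-fibre calcium buffer, read 12.52, 10.41 and 11.33 in soleus against 13.96, 13.98 and 13.96 in quadriceps (-2.54 ± 0.58), with J4-1 again the nearest to quadriceps. Cacng1, the gamma subunit of the skeletal calcium channel (-1.66 ± 0.13), the junctional protein Jph2 (-1.25 ± 0.15) and Casq1 (-1.03 ± 0.11) were lower as well.

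Outside the sarcomere and calcium genes, 2 genes stood among the 12 highest in soleus. Lgi1, a secreted protein known from the brain, read 7.75, 8.94 and 8.68 in soleus against 3.91, 4.01 and 3.63, a difference of 4.61 ± 0.19. Cyfip2, a part of the actin-regulating WAVE complex, read 6.77, 8.03 and 7.90 against 2.97, 3.37 and 3.15, a difference of 4.41 ± 0.20. The other probe set of Cyfip2 gave 2.74. Neither gene exceeded the array median in any quadriceps, so their quadriceps level is not well measured and the ratio only describes these values.

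The lowest gene in soleus was Mybph, a myosin-binding protein of fast fibres. It read 4.48, 4.68 and 3.61 in soleus and 10.56, 10.95 and 9.84 in quadriceps. The 3 single-mouse differences ran from -6.08 to -6.26, and the mean was -6.19 ± 0.28 (limma, adjusted p = 3.3e-12). The soleus values lie around the array medians of 4.39 to 4.44, where a low level is not well measured, so no fold is given. Tspan8, a membrane tetraspanin, read 5.97, 3.94 and 4.63 against 10.04, 10.06 and 10.29, a difference of -5.28 ± 0.43 with 1 soleus value under its array median. Its 4 probe sets ran from -5.28 to -1.23, and their mean gave -2.96. The soleus of J4-1 was the highest of the 3 for Tspan8, as for the fast genes above.

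Pfkfb3, which makes the activator of glycolysis fructose 2,6-bisphosphate, read 6.30, 4.87 and 5.31 in soleus against 9.68, 9.19 and 10.07 in quadriceps (-4.15 ± 0.31). Prkag3, the regulatory AMP-kinase subunit of glycolytic muscle, read 7.56, 6.27 and 6.47 against 10.74, 10.20 and 11.07 (-3.91 ± 0.32). Smox, which oxidises the polyamine spermine, read 7.47, 6.05 and 6.18 against 9.97, 9.70 and 10.07 (-3.34 ± 0.27). In each of the 3 genes, both muscles were apart in every mouse and J4-1 had the smallest difference. The values of Pfkfb3 and Smox are those of the brightest of 2 probe sets, and the other gave -1.97 for each gene.

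Actc1, the cardiac alpha-actin, which young skeletal muscle still makes, read 9.55, 9.12 and 8.70 in soleus and 12.99, 12.99 and 11.72 in quadriceps (-3.44 ± 0.30). The integrin subunit Itga4 was lower by 3.23 on the log2 scale, with values of 4.56, 4.54 and 4.15 against 7.47, 7.51 and 7.97. These soleus values lie around the array medians of 4.39 to 4.44, and the other probe set of Itga4 gave -1.48. The lipoprotein-associated phospholipase Pla2g7 (-3.89 ± 0.24), the membrane protein Tlcd4 (-3.37 ± 0.32, or -2.05 as the mean of its probe sets) and the small GTPase Rasd2 (-3.26 ± 0.23) were lower too. The other probe set of Rasd2 gave -1.90. Htra4, a serine protease, differed by -3.70 ± 0.42, and no soleus value of it exceeded the array median. Ighm, the immunoglobulin mu chain, differed by -4.50 ± 0.36 at its brightest probe set, but its 6 probe sets ran from -4.50 to 0.41, so the value belongs to that probe set and not to the gene.

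**Figure D2:**
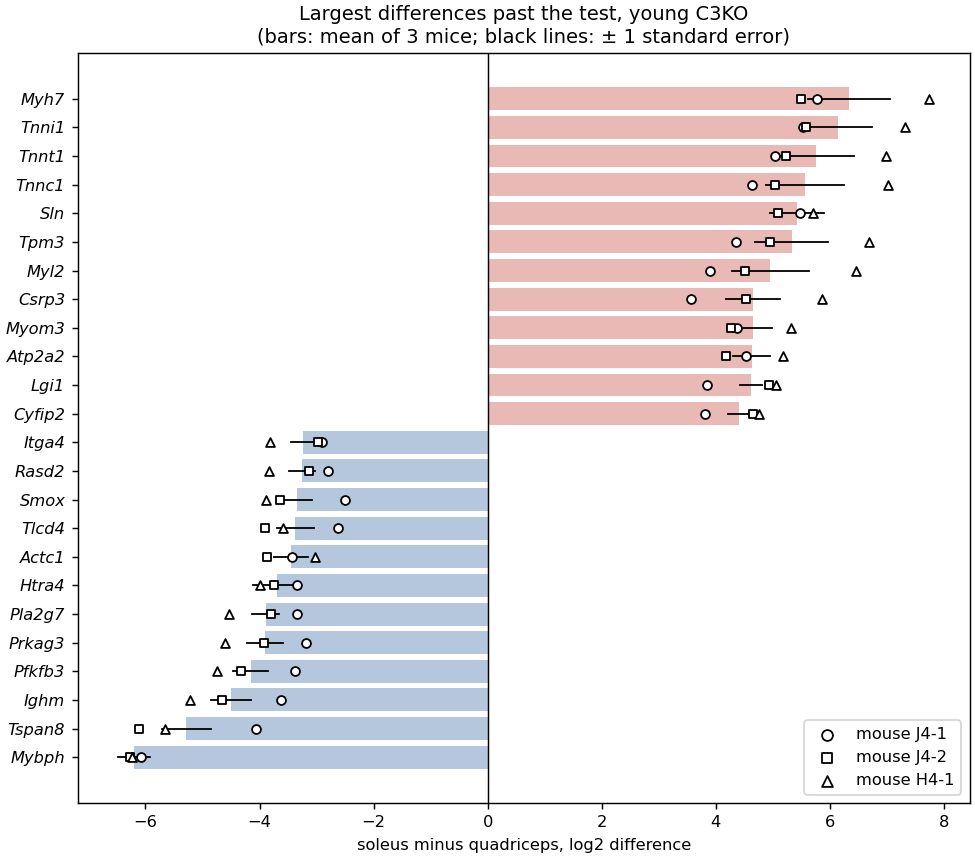
Soleus minus quadriceps log2 difference (x axis) of the 12 genes most raised and the 12 most lowered in soleus among those past the test. Bars are means over 3 mice, and markers are single mice. Black lines are 1 standard error to each side, from limma's spread shared by 18 mice. H4-1 holds the largest difference for most slow fibre genes, from 5.85 to 7.74 for Csrp3 and Myh7.

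Of 28 genes of fatty acid uptake and oxidation, 26 were higher in soleus, against 13.0% over all genes, and none was lower, with a median of 1.22. The largest among the 6 with the smallest p were Acot2, a mitochondrial thioesterase (1.86 ± 0.17), and Acaa2, the last enzyme of the beta-oxidation cycle (1.83 ± 0.19). The long-chain dehydrogenase Acadl (1.44 ± 0.15), the carnitine carrier Slc25a20 (1.40 ± 0.14), lipoprotein lipase Lpl (1.40 ± 0.15) and the electron carrier Etfa (1.02 ± 0.11) followed. Lipe and Ucp3 were the members that did not pass.

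The tricarboxylic acid cycle and its entry enzymes had 16 of 25 genes higher (13.0% over all genes), none lower and a median of 0.41. Idh2, the NADP-linked isocitrate dehydrogenase, read 11.33, 11.87 and 11.57 in soleus against 8.61, 9.14 and 8.32 in quadriceps, a difference of 2.90 ± 0.26 that stood apart from the group. The pyruvate dehydrogenase kinases Pdk4 (1.58 ± 0.20) and Pdk1 (1.23 ± 0.17), which turn that enzyme off, were higher as well.

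Respiratory chain subunits differed by less. In complex I, 10 of 32 were higher and none lower (median 0.15), led by Ndufv1 (0.75 ± 0.10). In complexes III and IV, 8 of 22 were higher and none lower (median 0.21). Among ATP synthase and carrier genes, 8 of 19 were higher and 1 lower (median 0.21), the lower one being the ATP synthase inhibitor Atpif1 (-0.74 ± 0.21). Set against the 13.0% of all genes that were higher, each of the 3 shares was above it, but no member except Slc25a5, the ADP/ATP carrier (0.87 ± 0.14), exceeded 0.8.

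Of 21 glycolysis genes, 13 were lower, against 19.2% over all genes, with 3 higher and a median of -0.53. Slc16a3, the lactate exporter of glycolytic fibres, read 6.47, 5.34 and 4.67 in soleus against 8.21, 8.53 and 8.41 in quadriceps (-2.89 ± 0.25). Gpd1, a cytosolic shuttle enzyme (-2.55 ± 0.22), Pgm1 (-1.55 ± 0.12) and the muscle fructose bisphosphatase Fbp2 (-1.51 ± 0.13) were lower. The 3 higher genes were Ldhb, the lactate dehydrogenase subunit of oxidative tissue (3.10 ± 0.30), the lactate importer Slc16a1 (1.79 ± 0.23) and hexokinase Hk2 (0.88 ± 0.16).

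Genes of glycogen breakdown were lower, through the phosphorylase kinase subunits Phkg1 (-2.55 ± 0.17), Phka1 (-1.92 ± 0.16) and Phkb (-1.52 ± 0.12), and through phosphorylase Pygm itself (-0.98 ± 0.13). The genes for glycogen synthesis that passed, Gbe1, the branching enzyme (1.72 ± 0.19), and Gys1, the synthase (0.80 ± 0.17), were higher. Stbd1 was lower as well (-2.15 ± 0.19). In all, 2 of 13 were higher, near the 13.0% over all genes, and 5 were lower (19.2% over all genes). Among 9 genes of phosphocreatine and purine energy, AMP deaminases split: Ampd3 was higher (2.34 ± 0.15) and Ampd1, the muscle form, lower (-1.23 ± 0.11). Myoglobin Mb was higher by 0.89 ± 0.13 and catalase Cat by 1.54 ± 0.16, while the secreted peroxidase Gpx3 was lower (-2.21 ± 0.18).

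Regulators of fibre type and metabolism had 8 of 23 genes higher (13.0% over all genes) and 5 lower, near the 19.2% over all genes. Esrrg, an oestrogen-related receptor of oxidative tissue, read 9.29, 9.17 and 9.23 in soleus against 6.17, 6.23 and 6.18 in quadriceps. Its 3 differences ran from 2.94 to 3.13, with a mean of 3.04 ± 0.25. Maf, a large Maf factor that favours type IIB myosin, read 7.99, 7.09 and 6.54 against 10.40, 10.13 and 10.25 (-3.05 ± 0.24). Sox6, a repressor of slow genes, was lower (-1.30 ± 0.12), and Vgll2, a TEAD cofactor, was higher (1.67 ± 0.17), as was the LIM protein Lmcd1 (2.43 ± 0.23).

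Of 22 genes of limb position measured, 6 were lower in soleus and 2 higher, a share near the 32.3% called over all genes. The homeobox genes Shox2 (-1.56 ± 0.21), Hoxa9 (-1.0 ± 0.15), Hoxc8 (-1.0 ± 0.20), Hoxc10 (-0.87 ± 0.14) and Hoxc6 (-0.54 ± 0.14) and the T-box gene Tbx15 (-0.70 ± 0.13) were the lower ones. Tbx4 (0.58 ± 0.16) and Zic1 (0.71 ± 0.25) were the higher ones. Means of Tbx4 were 4.74 in soleus and 4.16 in quadriceps, and those of Zic1 4.55 and 3.84. These lie around the array medians of 4.39 to 4.44, where a low level is not well measured. Soleus means of Shox2 (4.80) and Hoxc8 (4.71) lay not far above those medians.

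Among 28 partners of calpain 3 and genes that respond to stretch, 10 were higher (13.0% over all genes) and 6 lower, which is near the 19.2% over all genes, with a median of 0.12. Ankrd2, a titin-bound ankyrin repeat protein, read 12.03, 12.37 and 12.16 in soleus against 8.65, 8.92 and 7.28 in quadriceps (3.90 ± 0.39). Fhl1 and the filamin Flnc, both linked to the sarcomere's edge, were each higher by 1.66, with errors of 0.19 and 0.20. Camk2a, a gene of the calcium/calmodulin kinase family, was lower (-2.03 ± 0.22), and so was Ky, a Z-disc peptidase-like protein (-2.01 ± 0.25). Camk2b, of the same family, differed by 0.29 ± 0.17 and did not pass. None of the 28 passed the test of a genotype difference between young C3KO and young wt mice: for Ankrd2, C3KO minus wt was 1.16 (95% interval 0.08 to 2.25, limma adjusted p = 0.91).

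Heat shock proteins had 9 of 20 genes higher (13.0% over all genes) and 3 lower (19.2%). Hspb7, the small chaperone of heart and slow muscle, read 13.12, 13.08 and 13.12 in soleus against 9.94, 10.12 and 9.23 in quadriceps (3.34 ± 0.29). The inducible chaperones Hspa1b (2.85 ± 0.36) and Hspa1a (2.62 ± 0.37), near-identical copies whose probe sets may share signal, were higher, as were Cryab (1.01 ± 0.10) and Hspb6 (1.00 ± 0.12). The lower ones were Hsph1 (-0.86 ± 0.13), Dnajb5 (-0.47 ± 0.17) and Hspb8 (-0.42 ± 0.15).

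At the nerve contact, 8 of 18 genes were higher (13.0% over all genes) and 3 lower (19.2%). Chrna1, the alpha subunit of the acetylcholine receptor, read 8.66, 8.95 and 8.83 in soleus against 6.34, 6.96 and 6.65 in quadriceps (2.16 ± 0.14). The receptor-clustering kinase Musk (1.37 ± 0.18), its partner Lrp4 (0.94 ± 0.19) and agrin Agrn (0.47 ± 0.12) were higher, while acetylcholinesterase Ache (-1.18 ± 0.25), the receptor's beta subunit Chrnb1 (-0.64 ± 0.14) and the anchoring protein Rapsn (-0.50 ± 0.14) were lower. Of 13 embryonic and regeneration genes, 3 were higher (13.0% over all genes) and 2 lower, near the 19.2% over all genes. Myh3, the embryonic myosin, was higher (2.74 ± 0.34), with soleus at 5.91, 6.88 and 5.43 and quadriceps at 3.16, 3.69 and 3.15. Those quadriceps values lie under the array medians of 4.39 to 4.44 and are not well measured. Myl4 (0.76 ± 0.21) and Ncam1 (0.52 ± 0.17) were higher too, while Myod1, a myogenic factor of fast muscle (-1.22 ± 0.26), and the perinatal myosin Myh8 (-0.73 ± 0.17) were lower. Myh8 was low in both muscles, with means of 3.84 in soleus and 4.57 in quadriceps.

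Ion transport genes split by isoform. The sodium pump subunit Atp1b1 was higher (2.00 ± 0.22) and its relative Atp1b2 lower (-2.75 ± 0.30), and the potassium channel Kcnc4 was lower (-2.89 ± 0.24). In all, 5 of 21 were higher (13.0% over all genes) and 9 lower (19.2%). Among 25 genes of growth factor signalling, 4 were higher, near the 13.0% over all genes, and 8 lower (19.2% over all genes). The Wnt receptor Fzd9 (2.81 ± 0.19) and the fibroblast growth factor Fgf1 (2.49 ± 0.18) were higher, and Wnt4 (-2.42 ± 0.19), Igfbp5 (-1.66 ± 0.20) and Igf1 (-1.49 ± 0.23) lower. None of 16 large ribosomal subunit genes passed, with a median of -0.15.

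Stress, turnover and clock genes are given by their members beside 13.0% higher and 19.2% lower over all genes. Among these lists, only the count of immediate early genes higher clearly exceeds its share. The counts for atrophy genes higher and clock genes lower lie near theirs, and the other counts lie below. Of 23 immediate early genes, 6 were higher, among them Ccn1 (1.40 ± 0.21) and Btg2 (1.28 ± 0.16), and 1 was lower, the nuclear receptor Nr4a1 (-1.08 ± 0.22). Of 19 atrophy and autophagy genes, 3 were higher: Gabarapl1, an autophagosome protein (1.19 ± 0.19), the mitophagy receptor Bnip3 (0.92 ± 0.10) and the ubiquitin ligase Fbxo32 (0.91 ± 0.18). Gadd45a (-1.55 ± 0.26) and the other muscle ubiquitin ligase, Trim63 (-0.49 ± 0.12), were lower. The lower genes among 17 of the circadian clock were Hlf (-0.71 ± 0.14), Tef (-0.43 ± 0.12) and Nr1d2 (-0.35 ± 0.10), and none was higher. Of 21 interferon and MHC class I genes, Rsad2 was higher (0.82 ± 0.13) and Ifit3 lower (-0.90 ± 0.17).

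Genes of other cell types differed between the muscles as well, and in whole muscle fewer cells of a type and less RNA per cell cannot be told apart. Of 19 endothelial and capillary genes, 11 were higher (13.0% over all genes) and none lower (median 0.46), among them Sox17 (0.82 ± 0.21) and Emcn (0.77 ± 0.14). The secreted factors Angpt1 (1.24 ± 0.20) and Vegfa (0.78 ± 0.17) are counted too, though they are not markers of endothelial cells. The mean level of the 19 genes was 7.55 to 7.85 in soleus and 7.09 to 7.35 in quadriceps, which did not overlap. The count fell to 5 without H4-1, 4 without J4-1 and 7 without J4-2. Of 11 smooth muscle and pericyte genes, 6 were higher (13.0% over all genes) and none lower (median 0.45), led by Tagln (0.72 ± 0.16).

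Macrophage and leukocyte genes were lower in soleus in 16 of 22 cases, against 19.2% of all genes, with none higher and a median of -0.86. The scavenger receptors Cd163 (-1.42 ± 0.21) and Mrc1 (-1.44 ± 0.25) and the complement chains C1qb (-1.42 ± 0.23) and C1qc (-1.38 ± 0.21) had the smallest p together with Tyrobp (-1.34 ± 0.24). Cd163 read 5.45, 5.49 and 5.20 in soleus against 6.87, 6.50 and 7.04 in quadriceps. The list's mean level was 5.86, 6.19 and 5.56 in soleus and 6.74, 6.54 and 6.69 in quadriceps. Without H4-1, 10 were lower.

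Extracellular matrix genes had 15 of 27 lower (19.2% over all genes) and 2 higher, with a median of -0.61, and 9 lower without H4-1. Lox, the collagen cross-linker (-1.67 ± 0.26), Col3a1 (-1.29 ± 0.21), Col6a3 (-1.16 ± 0.20), Timp2 (-1.15 ± 0.17) and Col6a2 (-1.03 ± 0.17) were lower. Postn, periostin, stood on the other side with 9.44, 9.11 and 8.28 in soleus against 7.36, 7.13 and 6.79 in quadriceps (1.85 ± 0.20), and elastin Eln was the other higher gene (0.37 ± 0.14). Tendon markers moved with the matrix genes across the mice: the median over 13 was 0.62 in J4-1, -0.53 in J4-2 and -1.12 in H4-1, beside -0.11, -0.72 and -0.89 for the matrix list. Of the 13, 4 were lower (19.2% over all genes) and none higher (13.0%). Their mean level was 6.06 to 6.93 in soleus and 6.43 to 7.38 in quadriceps. The part of tendon in the matrix result was not tested.

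Adipocyte markers had 6 of 13 lower (19.2% over all genes) and 3 higher (13.0%), with a median of -1.07. Adiponectin Adipoq read 7.45, 8.18 and 6.79 in soleus against 10.16, 9.43 and 9.29 in quadriceps (-2.15 ± 0.43). The lipogenic genes Scd1 (-1.72 ± 0.28), Thrsp (-1.35 ± 0.18) and Fasn (-1.30 ± 0.27) were lower. Cidea, a lipid droplet protein, was higher (2.99 ± 0.36), and Plin4 was higher by 0.80 ± 0.12. The mean level of the list was 7.28 to 7.74 in soleus and 7.75 to 8.31 in quadriceps. The part of fat cells in other lower calls was not tested. The liver-specific Alb read between 3.48 and 3.85 on the 6 arrays and Apoa1 between 4.65 and 5.23. Of the 7 liver list genes measured, 2 were lower in soleus (19.2% over all genes). They were Cyp2e1 (-1.71 ± 0.37) and Hp (-1.20 ± 0.38), with quadriceps means of 7.49 and 6.99.

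**Figure D3:**
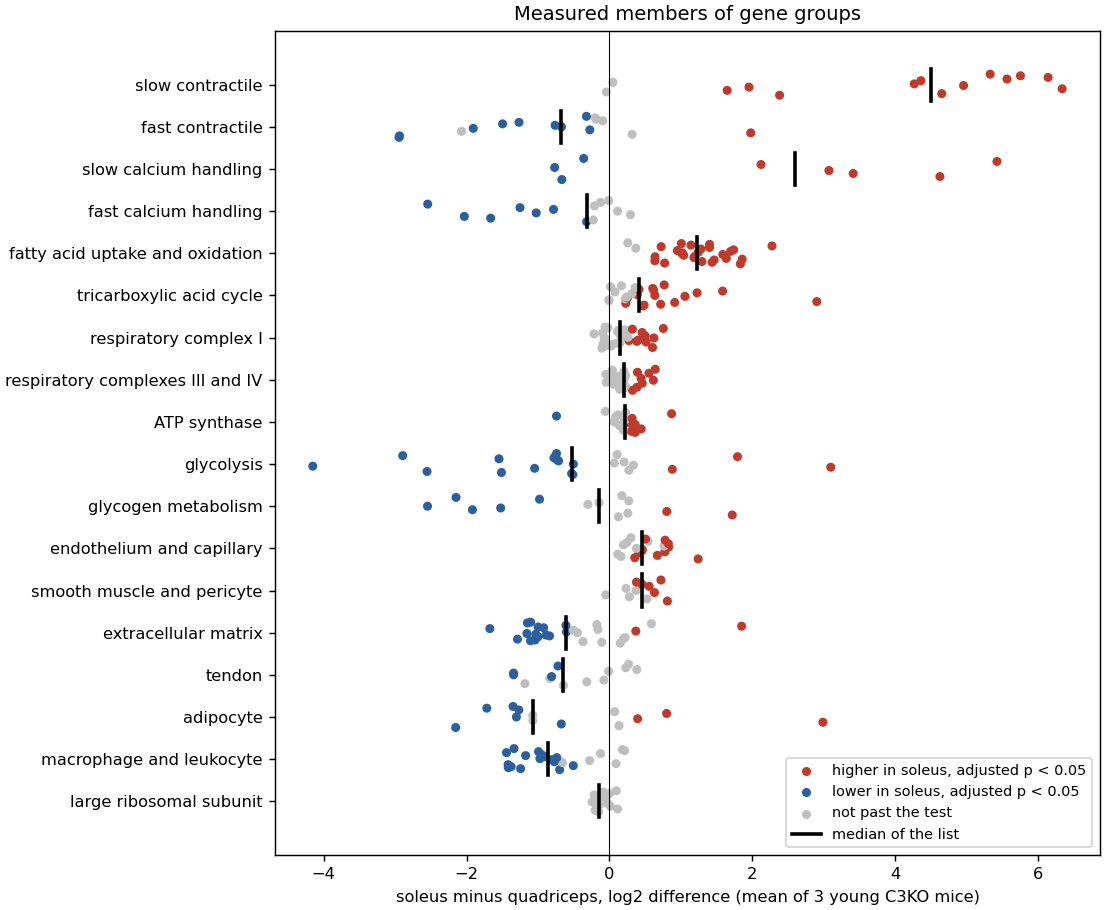
Soleus minus quadriceps log2 difference (x axis, mean of 3 mice) of every measured member of 18 gene groups; red and blue points passed the test as higher and lower in soleus, grey points did not, and black bars are medians. The slow contractile median lies at 4.50 and that of fatty acid oxidation at 1.22, while the macrophage median lies at -0.86 and the ribosomal one at -0.15.

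The muscle difference of young C3KO mice was then set beside that of young wt mice, which share no array with them. In wt, 4387 genes (35.5%) differed between muscles, 2251 higher (18.2%) and 2136 lower (17.3%) in soleus. This count rests on 4 mice and that of C3KO on 3, under 1 shared spread. The counts thus do not compare the size of the muscle difference. Of the 1607 genes higher in C3KO soleus, 1363 were also higher in wt (84.8% of the C3KO list, 60.6% of the wt list). Of the 2375 lower, 1731 were lower in wt (72.9% and 81.0%), and no gene was called in opposite directions. The slow contractile median was 4.50 in C3KO and 3.53 in wt, with no member passing the test of the genotype difference. For Myh7 the difference was 6.34 in C3KO and 5.49 ± 0.62 in wt, and C3KO minus wt was 0.85 with a 95% interval from -1.11 to 2.81.

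The test of the genotype difference itself (young C3KO minus young wt, limma, Benjamini-Hochberg) called 2 genes (0.0162%), both lower. At an unadjusted p under 0.05 there were 665 (5.39%). Aebp1, a secreted protein of collagen-making cells, differed between muscles by -1.32 to -2.30 in young C3KO and by -0.11 to -0.75 in young wt mice, and these ranges did not overlap. Its quadriceps read 8.89 to 9.44 in C3KO and 7.97 to 8.43 in wt, and its soleus 7.13 to 7.57 and 7.57 to 7.94. The change was -1.38 ± 0.23 (limma, adjusted p = 0.034). In adults, the muscle difference of Aebp1 was -0.94 to -1.72 in C3KO and -1.23 to -1.98 in wt mice. Young wt mice, all of prefix F4, thus stood apart from every other group, adult wt included. Matrix genes as a list had a median of -0.61 in young C3KO and -0.31 in young wt, and none of the 27 passed the test of the genotype difference.

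Cdh22, a cadherin, showed its genotype difference in soleus. It read 4.15 to 4.50 in C3KO soleus and 5.35 to 6.18 in wt soleus, while quadriceps read 4.43 to 4.57 and 4.27 to 4.45. All but the wt soleus values lie around the array medians of 4.39 to 4.44, where a low level is not well measured. The muscle difference ran from -0.37 to 0.07 in young C3KO and from 0.91 to 1.84 in young wt, a change of -1.37 ± 0.22 (limma, adjusted p = 0.034). In adults it ran from 0.04 to 0.94 in C3KO and from 0.76 to 1.27 in wt. Both calls were lost in several alternatives: without H4-1 and without J4-2, neither gene passed. Without J4-1, 1 gene passed, and with only the groups compared in the fit neither did.

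Some of the strongest muscle differences had intervals that leave room for a sizeable genotype difference. For Mybph, C3KO minus wt was -1.34 (95% interval -2.11 to -0.57) and for Smox 1.34 (0.60 to 2.08), with adjusted p of 0.51 and 0.42 by limma. The mean for Smox was -3.34 in young C3KO, -3.50 in adult C3KO and -3.61 in adult wt, and young wt stood apart at -4.69. The mean for Mybph was -6.19 in young C3KO, -4.86 in young wt, -5.09 in adult C3KO and -5.02 in adult wt. For Csrp3, C3KO minus wt in young mice was 1.30 (-0.02 to 2.61, limma adjusted p = 0.91). Adipoq differed between muscles by -2.15 in C3KO and -0.02 ± 0.37 in wt, a change of -2.13 (-3.30 to -0.96) that did not pass (limma, adjusted p = 0.42). The adipocyte list had a median of -1.07 in C3KO and 0.01 in wt, with mean levels of 7.86 to 8.38 in wt soleus and 7.27 to 8.17 in wt quadriceps.

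Age was compared within C3KO. In the 6 adult C3KO mice 6016 genes (48.7%) differed between muscles, 3002 higher (24.3%) and 3014 lower (24.4%) in soleus. With 6 mice against 3 young ones under 1 shared spread, standard errors are smaller in adults (0.50 against 0.71 for Myh7). The counts and list shares thus do not show whether the muscle difference is larger in adults. Of the 1607 genes higher in young C3KO soleus, 1410 were higher in adults (87.7% of the young list, 47.0% of the adult list). Of the 2375 lower, 2007 were lower in adults (84.5% and 66.6%), and 3 were called in the opposite direction. The slow contractile median was 3.24 in adults and 4.50 in young mice, again with no member past the test of the age difference.

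The test of the age difference (adult C3KO minus young C3KO, limma) called 12 genes (0.0972%), 10 with a higher adult difference and 2 with a lower one, and 1289 genes (10.4%) had an unadjusted p under 0.05. Actc1 was one of the largest. Its muscle difference was -3.02 to -3.87 in young C3KO mice and -1.26 to 0.02 in adults, a change of 2.82 ± 0.37 (limma, adjusted p = 0.0013). Its quadriceps read 11.72 to 12.99 in young and 9.87 to 10.92 in adult mice, while soleus read 8.70 to 9.55 and 9.10 to 10.11, so the ages were apart in quadriceps. Young wt mice gave -1.69 to -3.22 and adult wt mice -1.14 to 0.35, so the ages were apart in wt as well. The age difference in wt was not tested here.

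Ndrg4, a cytoplasmic protein known from brain and heart, had a difference of 0.19 to 0.93 in young C3KO mice and 1.55 to 4.38 in adults, a change of 2.84 ± 0.47 (limma, adjusted p = 0.013). Its soleus read 6.05 to 6.44 in young C3KO, 7.19 to 9.55 in adult C3KO and 7.96 to 8.82 in young wt mice. Young C3KO mice were thus the lowest of the 3 groups in soleus, and the genotype difference in the muscle difference, -1.97 ± 0.51, did not pass (limma, adjusted p = 0.41). Amph, amphiphysin, changed by 2.28 ± 0.35, with soleus at 3.48 to 4.24 in young and 4.71 to 6.71 in adult C3KO mice. On none of the 6 young C3KO arrays did Amph exceed the array median. In wt mice, the Amph difference ran from 0.58 to 1.15 in young and from 1.44 to 2.94 in adults. For Ndrg4 the wt ages overlapped, with 2.17 to 2.99 in young and 1.52 to 3.62 in adults.

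Mamdc2 (1.64 ± 0.31), the collagen prolyl hydroxylase P3h2 (1.58 ± 0.30) and the hyaluronan receptor Cd44 (1.49 ± 0.26) had a higher soleus minus quadriceps difference in adults. Of 20 alternatives each, Mamdc2 kept its call in 9, P3h2 in 10 and Cd44 in 13. Cd44 lay at -0.17 to -0.83 in young mice and 0.43 to 1.5 in adults, on opposite sides of 0. Ikbip (1.26 ± 0.24) and the centrosomal protein Nin (0.97 ± 0.14) also had a higher difference, but their 3 probe sets each did not share one sign in young C3KO mice. Tmem37 (-1.23 ± 0.16) and Aldh1a1, a retinaldehyde dehydrogenase (-1.06 ± 0.17), had a lower one. Both read higher in adult than in young C3KO quadriceps, with 11.46 to 11.75 against 10.58 to 10.91 for Aldh1a1. In wt quadriceps, Aldh1a1 read 11.69 to 11.82 in adult and 10.81 to 11.15 in young mice. Mean muscle differences in young and adult wt mice were -1.06 and -1.71 for Tmem37 and -0.51 and -0.96 for Aldh1a1. They were 3.16 and 3.05 for Mamdc2, 2.46 and 2.61 for P3h2 and 0.27 and 0.12 for Cd44. For Ikbip they were -0.47 and -0.17, and for Nin 1.52 and 1.22.

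All arrays of the 3 young C3KO mice carry the description code 1-3, which 2 of the 6 adult C3KO mice share. With mice of that code alone, 0 of the 12 age calls passed, and Actc1 gave 2.57 (adjusted p = 0.21) in the same limma model. Code and age can be told apart only through those 2 adult mice. The difference in 3′ minus 5′ actin signal between muscles, a measure of RNA quality, was -0.05 in J4-1, 0.09 in J4-2 and -0.32 in H4-1. With it as a covariate, 3713 genes passed for the muscle difference, 1 for the genotype difference and 6 for the age difference.

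**Figure D4:**
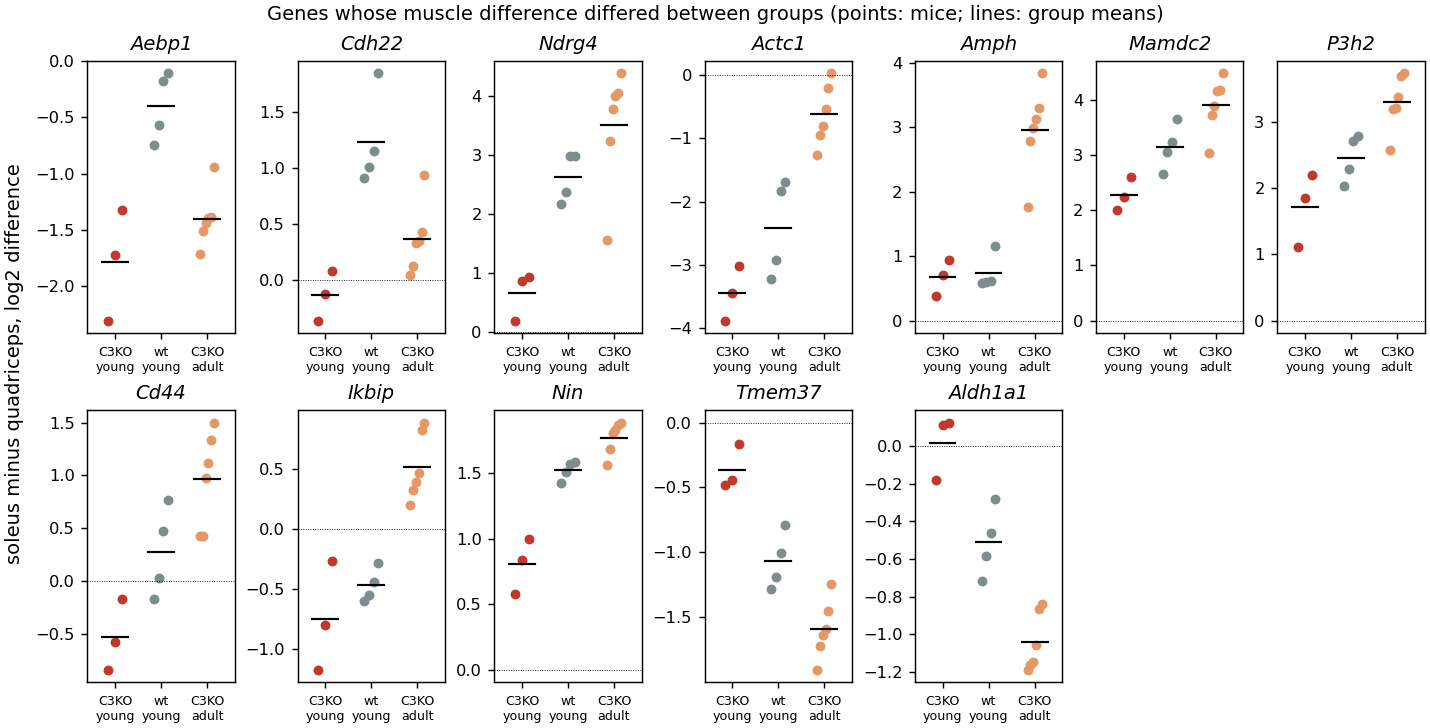
Soleus minus quadriceps log2 difference (y axis, own scale in each panel) of the 2 genes called for genotype and 10 named of the 12 called for age, with points for young C3KO (n = 3), young wt (n = 4) and adult C3KO mice (n = 6) and lines at group means. Aebp1 and Cdh22 show young C3KO below young wt without overlap, and Actc1 runs from -3.87 in young to 0.02 in adult C3KO mice.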

How the data were processed

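Total RNA was extracted with Trizol and labelled with biotin, per the labels' protocols. The authors deposited log2 values of 45101 probe sets; the submitters' processing notes name MAS5 and RMA, with no role or version. How they were scaled was not given in the sources used here, and no further normalization was applied.

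The 64 control probe sets and those without exactly 1 gene symbol in the platform annotation (932 with several, 9160 with none) were left out. Symbols were updated through a GRCm38.p6 gene table, which matched 34741 of 34945 (99.4%). A probe set was kept when above its array's median on at least 3 of 36 arrays, and the brightest one stood for its gene. Mouse M2-1 was left out because its title and description name different muscles.

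Soleus minus quadriceps differences of 18 mice in 4 groups were fitted with limma 3.58.1 in R 4.3.3 (lmFit, eBayes, 14 residual degrees of freedom), two-sided, with Benjamini-Hochberg adjustment over 12345 genes at 0.05. Arrays of one mouse number come from the same animal, so the fit is paired. Errors are standard errors. The scripts were tested on simulated data. Mice are separate animals per the labels; for arrays, their number limits the precision.

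The mice and the 36 gene lists were chosen with earlier results of these data known. The genes named were the 12 most raised and 12 most lowered with 1 sign in 3 mice, up to 6 members per list with the smallest p, all contractile genes, Capn3, and up to 8 each way for genotype and age. Other members that make up a count of 5 or fewer were added after their values were seen. Alternatives were the pairing, the mice in the fit, H4-2, scaling, filters, probe set choice, eBayes options, the actin covariate and the description code.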

Additional observations from a re-analysis of the deposited data

Results flagged for a closer look

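The soleus minus quadriceps difference differed between young C3KO and young wt mice, by limma's test of the difference, for Aebp1 (-1.38) and Cdh22 (-1.37). Between adult and young C3KO mice it differed for Ndrg4 (2.84), Actc1 (2.82), Amph (2.28), Mamdc2 (1.64), P3h2 (1.58), Cd44 (1.49), Ikbip (1.26), Nin (0.97), Tmem37 (-1.23) and Aldh1a1 (-1.06), each as adult minus young on the log2 scale.

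For Amph, 1 young wt mouse, F4-3, lay far from the others, with a difference of 1.15 where the group's lowest was 0.58 and its median 0.61. It was the 1 distant mouse found in 24 groups of values examined; chance alone flags about 1 in 20 such groups.

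The soleus array of young C3KO mouse H4-2, left out of the comparisons, had a liver gene median of 12.4, with Alb at 14.1 and Apoa1 at 13.9. On the 6 arrays used, Alb lay between 3.48 and 3.85 and Apoa1 between 4.65 and 5.23.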

How the results depend on the processing

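The count of genes that differed between muscles was 3982 and ran from 3670 to 4457 over the alternatives that kept the 3 mice, including 3823 without the replicate block, with soleus and quadriceps arrays as unpaired groups. It was 2474 to 3317 when 1 young C3KO mouse was left out (2474 without H4-1). With the mean over probe sets, Tpm3 became 2.79, Tspan8 -2.96, Tlcd4 -2.05 and Ighm -1.17. All 24 genes named as most raised or lowered kept direction and call in each of 14 alternatives. Quantile normalization moved the share of higher calls from 40.4% to 49.8%. Of the list counts followed, endothelial genes higher became 6 with the actin covariate.

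The 2 genotype calls became 1 without the replicate block, with H4-2 included, with quantile normalization, with trend and robust eBayes and with the actin covariate, 0 with each mouse centred on its median, and 4 within code 1-3; with the compared groups alone 5 other genes passed and both Aebp1 (adjusted p = 0.080) and Cdh22 (0.064) were lost; leaving out 1 mouse gave 0 to 5 (5 without F4-3; 0 without H4-1, J4-2, F4-1 or F4-4; 1 without J4-1 or F4-2). The 12 age calls became 24 with H4-2 included, 6 with the actin covariate and 0 within code 1-3, and 5 to 24 when 1 mouse was left out (5 without J4-1, 6 without H4-1 or Q2-1, 7 without Q2-2 or Q2-4, 24 without U2-2). Fewer mice enter the fits within a code and without a mouse; the cause of the other changes was not tested. No result reversed. Low signal limits Lgi1, Cyfip2, Htra4, Amph, Cdh22, Myh8, Tbx4 and Zic1. It also limits the quadriceps values of Myh3 and Sln and the soleus values of Mybph, Tspan8 and Itga4. The top of the scale limits fast troponins and the soleus values of Myl2, Myl3 and Tpm3.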
